A study of Mus musculus with 80 samples.

Results

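Among the genes of mouse liver that move most when food is removed, 5 carry names that say little about the liver. They are Gm48199, E030018B13Rik, Serpina9, Chrna4 and Gm15998, 5 of the 78275 genes listed in the count table. They were chosen by their measured counts from CT12 to CT44, because their levels in fasted livers lay far above or far below those of control livers, with fitted differences of 1 sign at all 9 times after food removal, so that the fasting difference itself is given below as a description and without a test. Gm48199 and E030018B13Rik were higher in fasted livers, and Serpina9, Chrna4 and Gm15998 were lower. Sex, circadian time in fed mice, the state before food removal, exons and chromosomal neighbours were tested or described besides. Only the comparison at CT8 contrasts libraries that the choice did not use. The others rest in whole or in part on libraries that also chose the genes, and are not independent of the choice.

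The livers came from male and female C57BL/6J mice, an inbred strain, aged 8 to 12 weeks and given standard chow. The mice were kept in a light–dark cycle and then moved to constant darkness. Control mice were fed ad libitum throughout, whereas food was taken from fasted mice at circadian time (CT) 10. Tissue from the left lobe was collected every 4 h from CT8 to CT44, from 2 males and 2 females of each treatment and time, which makes 80 libraries. At CT8 both treatments were still fed, and the later times fall 2 to 34 h after food removal. Polyadenylated RNA was read from both ends with its strand kept.

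Library totals ranged from 25534901 to 59927771 gene counts (median 42303883). The title and the finer labels name different sexes in 40 of 80 libraries and different treatments in 40 of 80. Titles were used, and Xist and Ddx3y went with the sex of the title in 80 of 80 libraries. This says nothing of the treatment, which was not checked library by library. The column names of the counts give the treatment of the titles. With libraries grouped by title, 18 of 18 genes known to be induced by fasting were higher in fasted livers, against 29.5% of all tested genes. Of 16 genes known to be induced by feeding, 16 were lower, against 32.9% of all tested genes. These lists were chosen with earlier results of these data known, so they are no independent check of the labels. In 1 library, control CT8 female 2, the ribosomal RNA gene Rn18s-rs5 took 31.3% of the counts, against a median of 0.101% over all libraries. Levels are given in CPM (read counts scaled to a common library size) after scaling of the libraries, and differences on a log2 scale. Where 4 values are given, their order is male 1, male 2, female 1 and female 2. Labels do not say more about cages or litters, so p-values measure the spread between these mice alone.

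In the fed liver, insulin drives the transcription factor SREBP-1c and through it the enzymes that make fatty acids from acetyl-CoA. When food is withheld, glucagon, glucocorticoids and the fatty acid sensor PPARα take over, and the liver turns to fatty acid oxidation, ketone body synthesis and gluconeogenesis. Chrna4 encodes the α4 subunit of nicotinic acetylcholine receptors, ligand-gated ion channels best known from the brain, where α4 pairs with β2. Serpina9, also called centerin, is a clade A serpin, a relative of the plasma protease inhibitor α1-antitrypsin, and is best known from germinal centre B cells. E030018B13Rik is annotated as protein-coding and carries only a clone name. Gm48199 is annotated as a long intergenic non-coding RNA and Gm15998 as an antisense RNA. Positions are those of the GENCODE M21 annotation on GRCm38, an older build than the GRCm39 on which the files were made.

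Gm48199 (ENSMUSG00000113399.4) lies on the plus strand at chr13:52180411-52181637 and has 3 exons in its 1 annotated transcript. The first 300 of the 496 bases of its spliced sequence, from the GENCODE M21 transcripts, are shown because no protein describes this gene. Capitals mark the bases on both sides of the exon junctions.
Gm48199: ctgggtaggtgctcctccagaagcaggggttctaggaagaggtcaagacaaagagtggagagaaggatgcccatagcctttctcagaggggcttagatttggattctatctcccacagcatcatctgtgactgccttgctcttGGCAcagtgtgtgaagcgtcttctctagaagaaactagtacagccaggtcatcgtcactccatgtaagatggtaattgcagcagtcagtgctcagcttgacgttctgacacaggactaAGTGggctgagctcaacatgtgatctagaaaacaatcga

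Promoter sequences from RefSeq on GRCm38.p6, from 250 bases before to 50 bases after the start, could be matched for 3 of the 5 genes. They are shown because E030018B13Rik was higher and Chrna4 and Gm15998 were lower in fasted livers, and because these 3 windows differ widely in base composition. Capitals mark matches to a CCAAT box (CCAAT), a GC box (GGGCGG) or the short form of a cAMP response element (TGACG), searched on both strands.
E030018B13Rik, chr7:63916607-63916906, plus strand: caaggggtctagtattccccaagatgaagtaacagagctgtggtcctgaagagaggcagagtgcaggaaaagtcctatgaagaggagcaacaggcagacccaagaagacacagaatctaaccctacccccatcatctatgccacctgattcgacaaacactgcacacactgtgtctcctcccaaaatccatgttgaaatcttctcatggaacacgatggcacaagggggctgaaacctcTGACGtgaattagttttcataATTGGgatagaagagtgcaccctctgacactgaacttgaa
Chrna4, chr2:181039128-181039427, minus strand: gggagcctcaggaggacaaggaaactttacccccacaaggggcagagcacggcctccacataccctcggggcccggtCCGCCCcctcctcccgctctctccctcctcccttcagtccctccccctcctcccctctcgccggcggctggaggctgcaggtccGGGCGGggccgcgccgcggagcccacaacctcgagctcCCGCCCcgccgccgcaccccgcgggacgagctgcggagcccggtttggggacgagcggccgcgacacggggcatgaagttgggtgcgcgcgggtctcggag
Gm15998, chr3:89316496-89316795, plus strand: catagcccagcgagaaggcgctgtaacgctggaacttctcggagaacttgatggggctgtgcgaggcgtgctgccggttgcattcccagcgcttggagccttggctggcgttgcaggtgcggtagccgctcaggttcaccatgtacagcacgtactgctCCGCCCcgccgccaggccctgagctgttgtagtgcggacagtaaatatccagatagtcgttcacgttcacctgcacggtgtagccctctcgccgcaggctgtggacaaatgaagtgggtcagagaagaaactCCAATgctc

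The window of Chrna4 held 33 CpG dinucleotides and 74.3% G and C, and that of E030018B13Rik held 3 CpG and 47.3%. Gm15998 lay between them, with 21 CpG and 59.3%. Over 32851 promoters of the same length the median was 7 CpG and 52.7% G and C. A GC box was found 3 times before the start of Chrna4 and once in Gm15998, and in 35.7% of all promoters. The letters TGACG stood from 11 to 7 bases before the start of E030018B13Rik, and 20.8% of all promoters hold them. The CCAAT letters, present in 37.4% of all promoters, were found once in E030018B13Rik and once in Gm15998. The E-box CACGTG that clock proteins bind, in 7.15% of all promoters, was not found in any of these windows, nor were the full cAMP response element TGACGTCA (1.79%), the forkhead letters GTAAACA (3.65%), the short nuclear receptor element AGGTCA (16.3%) the TATA box TATAAA (13.6%), the D-box TTATGTAA (0.938%), the PPAR element DR1 (0.0396%) or the glucocorticoid response element (0.00913%). RefSeq places the starts of Chrna4 and Gm15998 inside the spans that GENCODE M21 gives for them. No entry was matched for Serpina9 or Gm48199.

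The description of the fasting response begins with Gm48199. From CT12 to CT44 its level in 36 control libraries had a lowest value of 0.0868 CPM, a median of 1.07 and a highest of 12.2. In 36 fasted libraries the lowest was 7.24 CPM, the median 55.4 and the highest 614. Just before food removal, at CT8, the libraries of the fasted group held 1.28, 0.332, 7.41 and 0.757 CPM, within reach of the controls at 1.63, 1.23, 0.26 and 1.14 CPM. After 2 h without food, at CT12, they held 25.5, 7.24, 11.1 and 64.1 CPM, while controls held 12.2, 7.2, 0.888 and 1.45 CPM, so that the groups still overlapped. By CT20 fasted livers had reached 133, 212, 179 and 69.6 CPM. Values were between 7.97 and 54.9 CPM at CT28, and stood at 115, 364, 485 and 169 CPM at CT44, when controls lay between 0.0868 and 1.54 CPM. Fasted and control libraries did not overlap at 8 of 9 times, and 2.58% of all tested genes did so at 8 or more times. The mean difference over CT12 to CT44 was 5.78 on the log2 scale (standard error 0.34), and the mean level at CT44 was 330-fold that of controls.

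E030018B13Rik (ENSMUSG00000095061.2) lies on the plus strand at chr7:63916857-63920539, and was the other gene with higher levels in fasted livers. Control libraries spanned 0 to 14.0 CPM with a median of 0.634, and fasted libraries 2.00 to 151 CPM with a median of 21.5. At CT12 fasted males held 9.11 and 9.80 CPM and control males 9.28 and 8.99 CPM, side by side, whereas fasted females at 2.00 and 3.47 CPM already lay above control females at 0.507 and 0.533 CPM. From CT20 on, every fasted library exceeded every control library of its time, so that the groups were apart at 7 of 9 times, a pattern of 7 or more times that 5.46% of all genes shared. At CT44 fasted livers held 41.3, 71.7, 102 and 26.5 CPM and controls 3.35, 5.71, 0.0428 and 0.0651 CPM. The mean difference was 4.94 on the log2 scale (standard error 0.21).

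Serpina9 (ENSMUSG00000058260.3) lies on the minus strand at chr12:103994743-104013755, within a cluster of clade A serpins. Control libraries ranged from 0.236 to 13.4 CPM with a median of 3.19. Fasted libraries ranged from 0 to 5.08 CPM with a median of 0.0228, and 16 of 36 had no count at all. The highest fasted value came at CT12, where the 4 libraries held 5.08, 3.27, 0.272 and 0.32 CPM and overlapped with controls at 5.66, 7.32, 0.423 and 1.39 CPM. By CT24 fasted livers held 0, 0.0651, 0.039 and 0.0184 CPM, and at CT36 all 4 were at 0 while controls held 4.26, 6.91, 0.352 and 7.01 CPM. Taken as 3 counts over the group, the limit that a count of 0 allows, the level at CT36 was at least 239-fold lower than in controls. At CT32 fasted livers held 1 count in all against 319 in controls, a ratio of 315 with an exact 95% interval from 56.2 to 12494, which covers counting error only. Groups were apart at 6 of 9 times, against 9.18% of all genes apart at 6 or more. The fitted mean difference was −6.28 on the log2 scale (standard error 0.39), a value that rests in part on 6 of 36 combinations of treatment, time and sex in which both libraries were at 0.

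Chrna4 (ENSMUSG00000027577.15) lies on the minus strand at chr2:181018380-181043546. Control livers expressed it at 2.42 to 144 CPM, with a median of 17.97, and fasted livers at 0 to 22.2 CPM, with a median of 0.227. Through CT12 and CT16 the groups overlapped, and fasted livers still held 7.43, 4.40, 5.01 and 6.03 CPM at CT16. At CT20 they held 1.32, 1.70, 0.325 and 0.586 CPM, below all controls of that time at 24.1, 41.1, 110 and 52.6 CPM. From then on the groups were apart, at 7 of 9 times, against 5.46% of all genes apart at 7 or more. At CT40 the 4 fasted livers held 2 counts together, against 14863 in the 4 controls, a ratio of 5558 (exact 95% interval from 1538 to 45900, counting error only). Controls of that time held 27.5, 19.4, 109 and 144 CPM. The mean difference over all times was −5.94 on the log2 scale (standard error 0.33).

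Gm15998 (ENSMUSG00000086389.3) lies on the plus strand at chr3:89315439-89318907. The groups overlapped at CT12, where fasted livers held 4.66, 4.65, 1.33 and 2.71 CPM and controls 2.54, 3.54, 4.84 and 2.13 CPM. The means of that time were 3.34 and 3.27 CPM, whereas the means of log2 CPM were 1.60 and 1.66. The fitted difference was −0.09 on the log2 scale (standard error 0.43). Its sign at this time thus depends on how the mean is taken. The groups no longer overlapped at CT20, when fasted livers held 0.234, 0.242, 0.093 and 0.0266 CPM and controls 8.20, 8.23, 10.8 and 5.73 CPM. Over CT12 to CT44 controls spanned 0.656 to 22.2 CPM (median 5.71) and fasted livers 0 to 4.66 CPM (median 0.217). The mean difference was −4.48 on the log2 scale (standard error 0.20). Groups were apart at 7 of 9 times, against 5.46% of all genes apart at 7 or more.

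**Figure D1:**
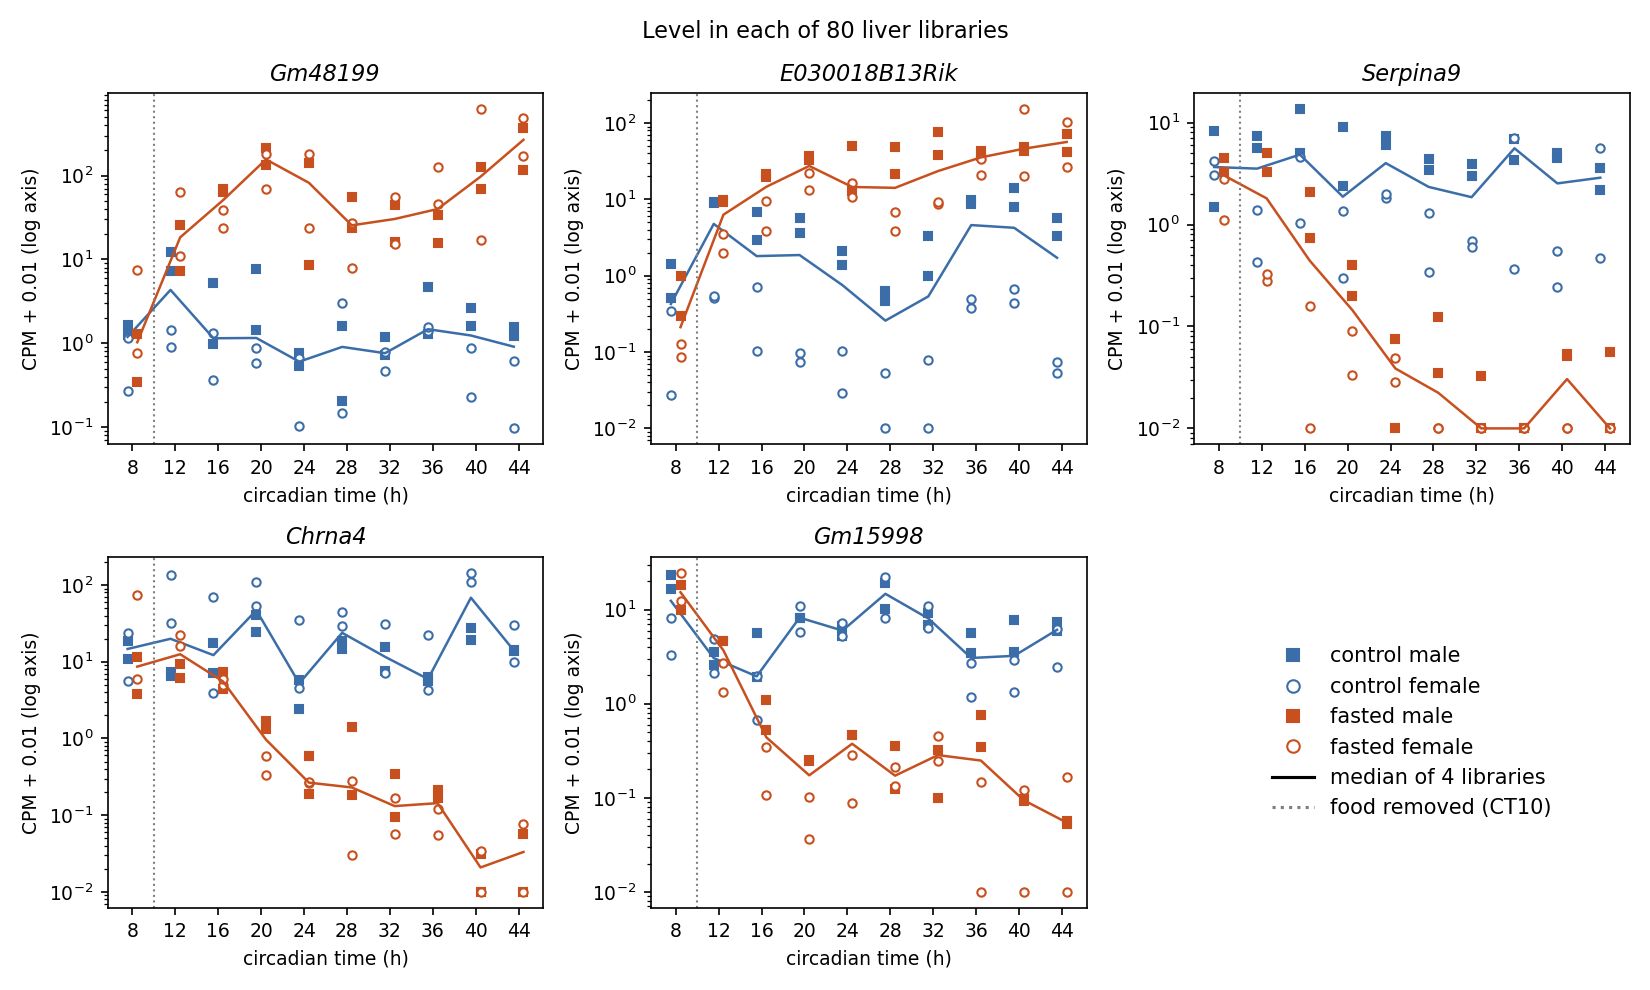
Level of each gene in each of 80 liver libraries, as CPM plus 0.01 on a log axis, against circadian time in hours. Filled squares are males and open circles females, blue marks control and orange fasted mice, and lines join the medians of 4 libraries. Control and fasted symbols mix at CT8 and separate between CT12 and CT24, with fasted Serpina9 at the floor of 0 counts in all 4 libraries at CT36.

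**Figure D2:**
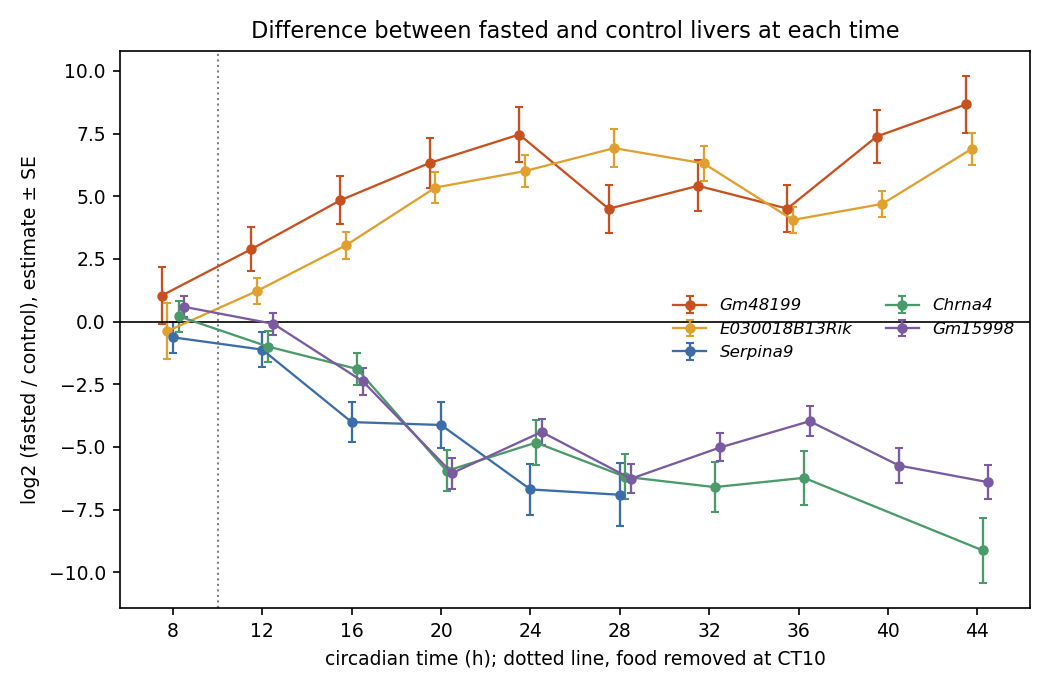
Log2 ratio of fasted to control livers at each circadian time, with standard errors from edgeR, for the 5 genes. Times at which the fasted libraries held 3 counts or fewer in all (Serpina9 from CT32 on and Chrna4 at CT40) are left out. The values start near 0 at CT8 and reach 8.66 for Gm48199 and −9.13 for Chrna4 at CT44.

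Ranked by the size of this mean difference among genes with an average abundance in edgeR of at least 1 (log2 CPM over the 80 libraries together, led by those in which a gene is high) and fitted differences of 1 sign, 1785 of them higher and 1978 lower, Gm48199 came in position 3 and E030018B13Rik in position 5 of the rises. Their closest neighbours in that order are genes of lipid handling and signalling, namely the α2A adrenoceptor gene Adra2a (6.12), the lipid droplet gene Cidec (5.62) and the fatty acid ω-hydroxylase gene Cyp4a14 (4.91). Serpina9, Chrna4 and Gm15998 took positions 1, 2 and 4 of the falls. Hsd3b5, a male-biased steroid dehydrogenase gene, stood at position 3 with −4.62, and Pnpla3, a lipase gene driven by SREBP-1c, at position 5 with −4.36. A gene low in 1 treatment can pass this limit through the other alone. The ranks describe the choice and are no test of it.

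Before food removal, at CT8, fasted and control groups were not told apart in any of the 5 genes (edgeR quasi-likelihood test, 0 of 5 at an adjusted p under 0.05, against 1.33% of all genes). The estimates lay between −0.63 for Serpina9 (standard error 0.62, adjusted p = 0.748) and 1.04 for Gm48199 (standard error 1.14, adjusted p = 0.783). With these errors, a difference of 1 on the log2 scale would not have been detectable for Gm48199 or Serpina9. The same holds for E030018B13Rik (standard error 1.13) and Chrna4 (0.62). For Gm15998 the standard error was 0.41.

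Whether the response depended on the length of the fast was described by comparing CT36, CT40 and CT44 with CT12, CT16 and CT20, the same phases 1 day apart. In fasted livers, Gm48199 was higher on the second day by 1.26 (standard error 0.45) and E030018B13Rik by 2.14 (0.26) on the log2 scale. The differences were −6.61 (0.89) for Chrna4, −5.73 (1.29) for Serpina9 and −2.58 (0.57) for Gm15998. At CT36, CT40 and CT44 fasted livers held 19, 2 and 4 counts in all of Chrna4. They held 0, 3 and 2 of Serpina9, and 44, 9 and 9 of Gm15998. The sizes of these falls thus depend on how counts near 0 are treated, and that of Serpina9 ran from −6.19 to −4.01 under 9 alternatives. All 5 passed at an adjusted p under 0.05, as did 34.9% of all genes, and all 5 did so for the change of the fasting difference between days, as did 21.2%, but these libraries also chose the genes, and nothing is read from those counts. The call of Gm48199 between days in fasted livers was lost without male replicate 1 (adjusted p = 0.0824, edgeR), male replicate 2 (0.275) or female replicate 2 (0.290) and by limma-voom (0.0615), and that of Gm15998 without female replicate 1 (0.0630). For the change of the fasting difference, Chrna4 was called under 10 of 10 alternatives, Gm15998 under 8, E030018B13Rik under 5 and Gm48199 under 4 of 10, and Serpina9 under 7 of the 9 that gave a value. The alternatives use the libraries that chose the genes, so these tallies are no support either. In fed controls the same comparison of days called 0 of 5 and 0% of all genes (0 of 21187 by edgeR, with 1232 at an unadjusted p under 0.05, 0 by limma-voom and 3 by DESeq2). Control estimates ran from −0.91 for Gm48199 (standard error 0.62) to 0.13 for E030018B13Rik (0.53).

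Levels in fed livers were compared between the sexes. Averaged over the 10 control times, the difference between females and males passed for 5 of 5 genes, against 39.2% of all genes (edgeR quasi-likelihood test), and 3 of them, E030018B13Rik, Serpina9 and Chrna4, kept the call under 10 of 10 alternatives. The sharpest was E030018B13Rik, which was lower in control females, with a difference of −4.71 log2 units (standard error 0.36, adjusted p = 7.57e-15). Both control males exceeded both control females at 10 of 10 times, which held for 1.98% of all genes. From CT12 to CT44 the 18 control females spanned 0 to 0.697 CPM with a median of 0.0904, and the 18 control males 0.452 to 14.0 CPM with a median of 4.67. The ranges meet at CT28, where both males, at 0.616 and 0.452 CPM, lay below the highest female of any time.

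Serpina9 was also lower in control females, with a difference of −1.84 log2 units (standard error 0.29, adjusted p = 2.60e-06, edgeR). Both males lay above both females at 7 of 10 control times, as 9.05% of all genes did at 7 or more. That held at 5 of 10 times for Gm48199 and 3 of 10 for Gm15998, and both females of Chrna4 lay above both males at 4 of 10. How many of all genes reach these lower counts was not worked out, and nothing is read from them. Among Serpina9 libraries, control females had a median of 0.858 CPM, from 0.236 to 7.01, and control males a median of 4.76 CPM, from 2.17 to 13.4. Chrna4 showed the opposite direction, with 31.6 CPM as the median of control females (3.87 to 144) and 14.0 CPM in control males (2.42 to 41.1), a difference of 1.48 (standard error 0.28, adjusted p = 3.43e-05). Gm48199 was lower in control females, with a difference of −1.44 (standard error 0.50, adjusted p = 0.0193), a call that was lost without male replicate 1 (adjusted p = 0.418) and under limma-voom (adjusted p = 0.242). Gm15998 was lower too, with −0.62 (standard error 0.19, adjusted p = 0.00771), and this call was lost without male replicate 1 (adjusted p = 0.136) or male replicate 2 (adjusted p = 0.101).

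In fasted livers from CT12 to CT44, a sex difference passed for 1 of 5 genes, against 38% of all genes. It was E030018B13Rik, still lower in females, now with −1.17 log2 units (standard error 0.21, adjusted p = 1.35e-05, edgeR). Fasted females had a median of 12.0 CPM, from 2.00 to 151, and fasted males a median of 37.5 CPM, from 9.11 to 77.3, and the 2 ranges overlapped broadly. Gm15998 had an estimate of −1.01 (standard error 0.42) that missed the threshold (adjusted p = 0.0533) and passed it with DESeq2 (adjusted p = 0.00413) and with a replicate block (adjusted p = 0.0240). Serpina9 was at 0 in 11 of 18 fasted females and in 5 of 18 fasted males. With so many zeros edgeR gave no usable error for Serpina9, and limma-voom gave −1.91 (standard error 1.19, adjusted p = 0.215).

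The fasting difference itself was larger in females than in males for E030018B13Rik, at 6.80 in females and 3.09 in males, a gap of 3.71 log2 units (standard error 0.46, adjusted p = 5.83e-07, edgeR). It was the 1 gene of 5 to pass, against 12.4% of all genes, and its adjusted p stayed between 1.44e-16 and 0.00641 under 10 alternatives. Fed females started from almost nothing and fasted females came within reach of fasted males. Gm48199 had estimates of 6.67 in females and 4.88 in males (difference 1.79, standard error 0.64, adjusted p = 0.0560), which passed with DESeq2 (adjusted p = 0.0162). For Chrna4 the estimate was −7.06 in females and −4.82 in males, with a difference of −2.24 and a standard error of 1.91 (adjusted p = 0.505 by edgeR and 0.00187 by DESeq2), so that the tools part on it. For Gm15998 the estimates were −4.74 and −4.22 (adjusted p = 0.522). For Serpina9 they were −6.67 and −5.90, a difference of −0.77 for which edgeR gave no usable error. limma-voom gave a difference of the other sign, 0.38 (standard error 1.23, adjusted p = 0.893).

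**Figure D3:**
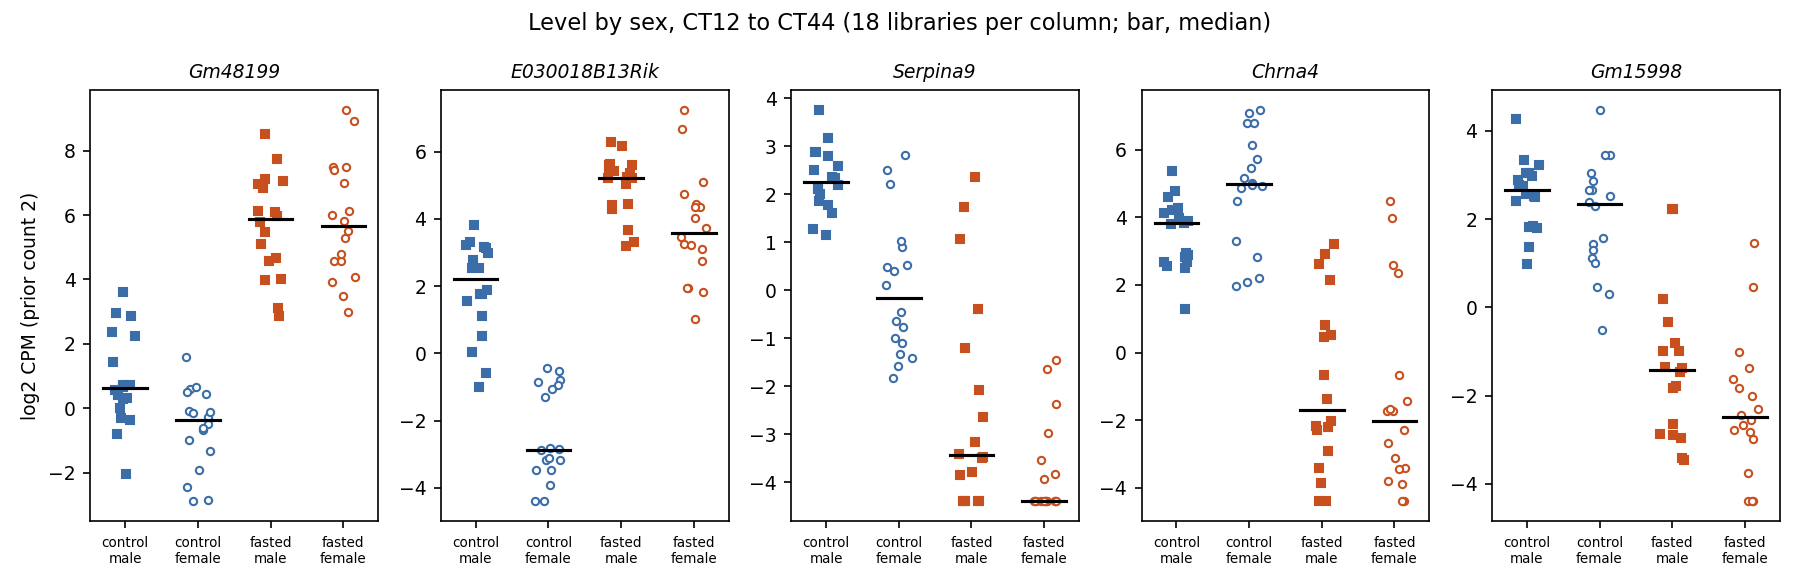
Level of each gene by treatment and sex, as log2 CPM with a prior count of 2, from CT12 to CT44. Each symbol is 1 of 18 libraries of its column and bars are medians. Control females lie below control males for E030018B13Rik and Serpina9 and above them for Chrna4, and the sexes lie closer together in fasted E030018B13Rik than in fed.

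Fed livers also showed a daily pattern in 2 of the 5 genes, against 45.4% of the 18242 genes tested for a 24 h cosine over 40 control libraries. E030018B13Rik peaked at CT15.0, and its fitted peak exceeded its trough by 4.02 log2 units (adjusted p = 8.21e-09, edgeR). Its control males held 9.28 and 8.99 CPM at CT12, fell to 0.616 and 0.452 CPM at CT28 and were back at 14.0 and 7.82 CPM at CT40. Control females followed at a lower level, with 0.507 and 0.533 CPM at CT12, 0 and 0.0439 CPM at CT28 and 0.651 and 0.435 CPM at CT40. Fasted males held 21.6 and 49.0 CPM at CT28.

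Gm15998 had nearly the opposite phase. It peaked at CT3.09, 2.29 log2 units above its trough (adjusted p = 1.12e-05, edgeR). Control livers held 10.0, 19.4, 8.21 and 22.2 CPM at CT28 and 1.92, 5.70, 0.656 and 1.97 CPM at CT16. Both rhythms passed under all 13 alternatives. The other genes did not pass, with adjusted p = 0.0938 for Gm48199, 0.130 for Chrna4 and 0.733 for Serpina9. Gm48199, with a fitted difference of 1.49, passed under 3 of 13 alternatives, and its highest controls were the males of CT12 at 12.2 and 7.2 CPM.

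A further trait of these genes was their spread between mice of 1 treatment, time and sex. In controls the standard deviation of log2 CPM within such groups was 1.25 for Gm48199, 1.21 for Serpina9 and 1.17 for Chrna4, against a median of 0.299 over all genes. These values stand above those of 99.4%, 99.3% and 99.2% of all genes. E030018B13Rik (0.79) and Gm15998 (0.70) varied less, above 93.8% and 87.8% of all genes. Genes were not matched for level, and counting error adds to this spread at low counts. Mean log2 CPM in controls was 0.106 for Gm48199, 1.24 for Serpina9 and 4.12 for Chrna4. Chrna4 in control females at CT24, for example, held 35.4 CPM in 1 mouse and 4.57 CPM in the other.

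Which genes varied with Chrna4 from mouse to mouse was described next. After the mean of each treatment, time and sex was taken away, the residuals of Chrna4 over 80 libraries correlated best with those of Acly, which makes cytosolic acetyl-CoA from citrate (Pearson r = 0.82), Acss2, which makes it from acetate (0.82), and Gm74971 (0.81), a predicted gene. Within the 40 control libraries the values were 0.92, 0.93 and 0.95, and within the 40 titled fasted 0.64, 0.64 and 0.56. The latter include the libraries of CT8, when the mice were still fed. From CT12 to CT44 the median count of Chrna4 in fasted livers was 9.5, so these values say little of fasted livers. Each combination of treatment, time and sex holds 2 libraries, so its 2 residuals are equal and opposite. The independent points are thus fewer than the libraries. The points also share libraries and depth, genes were picked for the highest r of all, and no p is given. Fasted and control livers differed by −2.41 on the log2 scale in Acly, −2.10 in Acss2 and −6.09 in Gm74971, which is not among the ranked genes above.

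**Figure D4:**
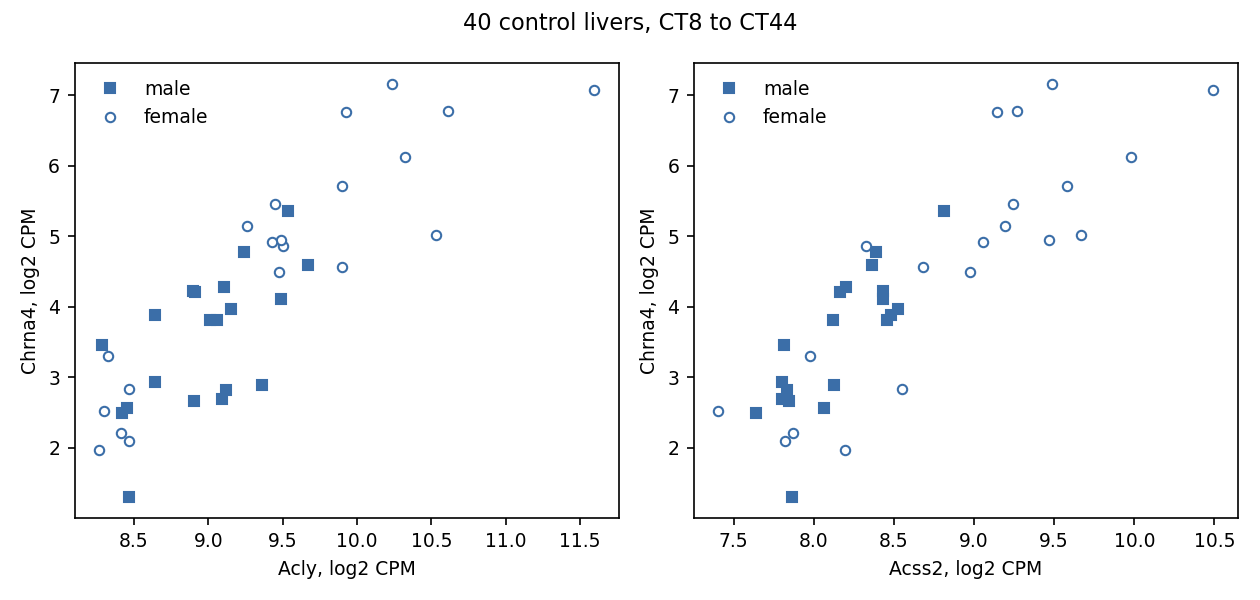
Level of Chrna4 against Acly and Acss2, all as log2 CPM with a prior count of 2, in the 40 control libraries from CT8 to CT44. Filled squares are males and open circles females. Livers high in Acly or Acss2 were high in Chrna4, over more than 5 log2 units of Chrna4, and the highest are females.

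By the same measure Gm48199 went with the amino acid transporter gene Slc38a2 (r = 0.77 over 80 libraries), with Rasgef1b (0.71) and with Gm57436 (0.71). E030018B13Rik went with Gm27252 (0.70), Cntrl (0.69) and Ccnk (0.69). Serpina9 went with Ergic2 (0.67), Nop2 (0.66) and Gm56542 (0.65), and Gm15998 with Rell1, Siglecg and Arhgap18, at 0.63 to 0.64. Over the 20 means of treatment and time, which hold the fasting difference itself, the closest genes were Gfra1 for Gm48199 (r = 0.97), Eif4ebp3 for E030018B13Rik (0.98), Lifr for Serpina9 (0.98), Gcat for Chrna4 (0.98) and Ago1 for Gm15998 (0.98). Among the next in order were Gm71090 and Crybg1 for Gm48199, E230001N04Rik and Cdip1 for E030018B13Rik, Keg1 for Serpina9, Habp2 and Cyp4f14 for Chrna4, and Albfm1 and Dcps for Gm15998, at 0.97 to 0.98.

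For comparison, lists of genes with known roles were read against the mean fasting effect, for which 62.5% of all genes were called, 29.5% higher and 32.9% lower, with a median of −0.02 on the log2 scale. Of 18 genes known to be induced by fasting, 18 were higher (median 1.98), among them Fgf21 (3.95) and Cpt1a (1.46). Of 16 genes known to be induced by feeding, 16 were lower (median −2.56), among them Srebf1 (−3.13) and Fasn (−2.86).

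The other subunits of the Chrna4 family did not show a fall of this size. Of 15 other nicotinic receptor subunits, 5 had enough counts to be tested. Chrna2 was higher in fasted livers by 1.86 on the log2 scale (standard error 0.10), with a median of 19.3 CPM against 6.39 in controls, and Chrnb2, the usual partner of α4, was higher by 0.32 (0.08), at 2.36 against 1.98 CPM. Chrne, a muscle subunit, was lower, with −2.71 (0.40), at 0.0254 against 0.207 CPM, and was not called without male replicate 2 or female replicate 2. Chrnb1 did not pass (−0.06), and for Chrna7, with medians of 0.048 CPM in controls and 0 in fasted livers, edgeR gave no usable error. Without male replicate 1 only 1 subunit was called higher.

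The other members of the Serpina9 family gave smaller values. Of 20 other clade A serpins tested, 8 were higher and 9 lower, with a median of −0.03 on the log2 scale. The largest falls after it were in Serpina5, the protein C inhibitor (−2.53, standard error 0.55), Serpina6, which carries corticosteroids in plasma (−1.71, 0.12), Serpina7, which carries thyroxine (−1.65, 0.14), and Serpina12, the adipokine vaspin (−1.61, 0.27). Serpina3n, an acute phase inhibitor, was higher (0.92, 0.11). The α1-antitrypsin gene Serpina1b, a near-identical copy of its sisters, so that reads may be split among them, had an estimate of 0.03 (0.04). Of 14 serpins of other clades, 4 were higher and 7 lower, among them Serpinh1 (−1.08). Those called higher were 4 clade A serpins without male replicate 2 and 2 of other clades without male replicate 1.

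Since Serpina9 is known from B cells and Chrna4 from neurons, markers of other cells were read beside them. In bulk tissue, fewer cells of a type and less RNA per cell cannot be told apart. All 5 B cell markers were lower in fasted livers, from −0.44 for Cd79b to −1.09 for Ms4a1, and their summed level ran from 1.99 to 11.5 CPM in controls and from 0.287 to 13.8 CPM in fasted livers. Of 5 germinal centre markers, 4 could be tested and 2 were lower (S1pr2 −0.51 and Mybl1 −0.54). Summed levels of that list ran from 23.3 to 154 CPM in controls and from 18.4 to 130 CPM in fasted livers. For neurons 2 of 5 markers could be tested, Syt1 (−0.45) and Rbfox3 (0.28), and the summed level of the list ran from 2.87 to 26.3 CPM in controls and from 3.30 to 22.2 CPM in fasted livers. Of the hepatocyte markers 4 of 5 were higher and 1 lower, and Alb had medians of 69295 CPM in controls and 70105 CPM in fasted livers. Lower in fasted livers were also 5 of 5 Kupffer cell and 4 of 5 cholangiocyte markers. Of 5 stellate cell markers 3 were lower and 1 higher, and of 5 endothelial markers 2 were lower and 2 higher. Of the other lists, 1 of 5 T cell markers, 0 of 4 tested neutrophil markers and 1 of 4 tested exocrine pancreas markers were lower, and 2 of 3 tested adipocyte markers were higher. The part of other cells in these falls was not tested.

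Genes next door on the chromosome were read next. Of 51 annotated genes within 100 kb of the 5, 30 were tested, and 3 were higher and 20 lower in fasted livers, which is 76.7% called, against 62.5% of all genes (29.5% higher and 32.9% lower), with a median of −0.23 on the log2 scale. For Gm48199 neither of the 2 annotated neighbours had enough counts. E030018B13Rik lies wholly inside Klf13, on the opposite strand. Klf13, a Krüppel-like transcription factor gene, held medians of 55.1 CPM in controls and 54.9 CPM in fasted livers (−0.12, standard error 0.05). Gm27252, annotated as a processed transcript, on the same strand and 17159 bases before the start of E030018B13Rik, was higher in fasted livers by 1.83 (standard error 0.12, adjusted p = 2.50e-18, edgeR), and is also the gene whose residuals went best with it. Gm32633, 81.3 kb on the other side, was lower, with −0.997.

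Around Serpina9, all 6 tested genes within 100 kb were lower, by −0.22 to −2.53. The furthest from 0 was Serpina5, 87.4 kb away on the opposite strand, with −2.53 (standard error 0.55). Serpina11, 4786 bases away, was lower, with −0.22 (standard error 0.05), Serpina12, 15.0 kb away on the other side, by −1.61, and Serpina1e, Serpina1c and the antisense gene B430119L08Rik by −0.60, −0.47 and −0.25. Within 250 kb of Serpina9, 15 genes were tested, of which 5 were higher, 7 lower and 3 not called. Around Chrna4, 2 of 5 within 100 kb were lower, Nkain4 (−0.81) and BX649560.1 (−0.28). Col20a1, a collagen gene whose span ends 17 bases from that of Chrna4, did not pass (−0.19, standard error 0.09), and neither did Arfgap1 (−0.01) or Ythdf1 (0.01).

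Gm15998 lies wholly inside Efna3, an ephrin gene of the opposite strand. Efna3 held 16 counts over 36 control libraries and 3 over 36 fasted ones, at most 3 in a library, and was too low to be tested, whereas Gm15998 held 9987 and 755 counts. Of 16 tested genes around it, 10 were lower, among them Efna4 (−1.32), Muc1 (−0.98), Cks1b (−0.87), Trim46 (−0.83), Krtcap2 (−0.62) and Efna1 (−0.57), and also Dpm3 (−0.27), Slc50a1 (−0.22), Gm15417 (−0.20) and Shc1 (−0.13). Dcst2 (0.86) and Flad1 (0.09) were higher, and Adam15, Zbtb7b, Mtx1 and Thbs3 did not pass. The kit kept the strand, but whether counting used it is not given in the sources used here, and if it did not, reads of overlapping genes cannot be told apart.

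**Figure D5:**
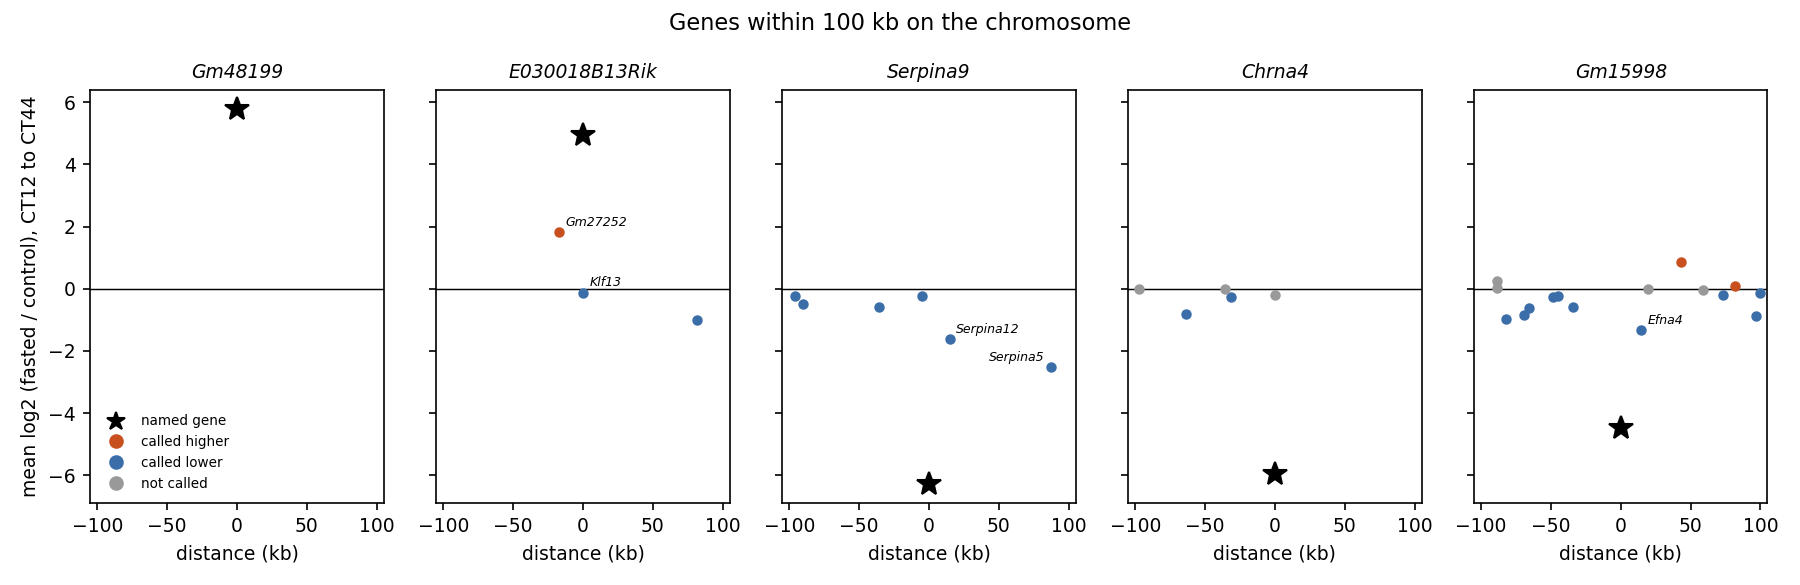
Mean log2 ratio of fasted to control livers from CT12 to CT44 for tested genes within 100 kb of each gene, against distance in kb along the chromosome (negative, lower coordinates). The star is the named gene, and dots are neighbours called higher (orange), lower (blue) or not called (grey). Stars stand at 5.78, 4.94, −6.28, −5.94 and −4.48, and dots between −2.53 and 1.83.

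Counts on exon bins, read from a second table without coordinates, showed where the reads of these genes fell. In 3 of its 80 columns, all from fasted CT40, the library that matched best was another of the same group, so the values are given over the 36 libraries of a treatment from CT12 to CT44. Of 17 bins of Chrna4, the first 3 had no count in those libraries, bin 4 held 40.3% of the gene's counts in controls and 39.1% in fasted livers, and bin 7 held 21.7% and 20.6%. Serpina9 was read almost wholly from bins 1 to 4 of 9, which held 16.04%, 35.9%, 20.5% and 27.5% of its control counts, and 15.9%, 31.7%, 20.3% and 31.1% of its fasted counts. The 3 bins of E030018B13Rik held 16.4%, 27.6% and 56.0% in controls and 11.0%, 29.7% and 59.3% in fasted livers. Over control libraries with at least 20 counts, bin 1 had a share of 15.6% ± 5.83 (SD, n = 23), and over such fasted libraries 12.0% ± 2.79 (SD, n = 36). The difference was not tested. For Gm48199 and Gm15998, exon bins were not analysed here.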

How the data were processed

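Liver RNA was measured in 80 libraries by poly(A) RNA-seq. The authors deposited raw read counts per gene and per exon bin, made per the labels with Trimmomatic, HISAT2 and DESeq2 on GRCm39. Versions, the counting program and its use of strand are not given in the sources used here, and the paper, a review, describes no test for these data. Samples were grouped by title. A normalized table was not used, and 0 columns were left unmapped. Totals ran from 25534901 to 59927771 counts per library, and intervals cover counting error only.

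CPM values were computed from the counts with TMM scaling, and log2 CPM with a prior count of 2. After edgeR's filter on low counts, 21187 of 78275 genes were tested, all 5 named genes included, with edgeR 4.0.16 (quasi-likelihood, R 4.3.3), 1 mean per combination of treatment, time and sex, and Benjamini-Hochberg adjustment over all genes at 0.05. The rhythm test used 40 control libraries. Scripts were tested on simulated data. Alternatives were limma 3.58.1 (voom), DESeq2 1.42.0, other scaling, filter and prior count, single sexes, a replicate block and leaving out replicates.

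The genes and lists were chosen with earlier results of these data known. Genes named besides them are, for each, the 3 most alike over means and over residuals, all tested neighbours within 100 kb, the listed genes and the neighbours in rank. Some genes that this rule names are not reported here.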

Additional observations from a re-analysis of the deposited data

Results flagged for a closer look

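Among 100 groups of 4 libraries of 1 gene, treatment and time, 4 held a library far from the others by Dixon's ratio, and chance gives about 1 in 20. Gm48199 in control CT36 male 2 stood at 4.65 CPM, against 1.28 to 1.54 CPM in the others. Serpina9 was at 0.0224 CPM in fasted CT32 male 2 and at 0.0463 CPM in fasted CT44 male 1, where all others of the group were at 0, so that 1 or 2 reads set these libraries apart. Gm15998 was at 0 in fasted CT40 female 1 and at 0.0819 to 0.110 CPM in the others.

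The fasting difference of E030018B13Rik differed between the sexes, with 3.71 log2 units more in females (edgeR). Between the first and the second day of fasting the difference between treatments changed by 2.17 for Gm48199, 2.01 for E030018B13Rik, −5.54 for Serpina9, −6.04 for Chrna4 and −2.54 for Gm15998. The genes were chosen on these libraries, and nothing is read from the calls of the changes between days.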

How the results depend on the processing

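Replicate numbers were not used as pairs in the main fit. Residuals of same-numbered control and fasted libraries correlated above 0.1 in 7 of 20 pairs (median r = 0.00872, from −0.223 to 0.601). No expected share was worked out, so this cannot tell whether the numbers mark pairs or a shared batch. Over all genes, the 282 calls at CT8 became 1 with the replicate block, 4 by limma-voom, 556 by DESeq2, 11 without control CT8 female 2 and 0 to 2123 without 1 replicate. With the block, Chrna4 at CT8 was −0.178, and the change of Gm48199 between days lost its call (adjusted p = 0.0561, edgeR). For sex in fasted livers the block called 2 of 5 genes, and 7590 of 21187 over all genes.

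The fasting difference was 3.09 in males only and 6.80 in females only for E030018B13Rik, and −4.82 and −7.06 for Chrna4. The difference of mean log2 CPM of Serpina9 went from −4.30 to −5.41 with a prior count of 0.5. DESeq2 called 3 of 5 genes for the sex difference of the fasting effect and 2 for sex in fasted livers, and limma-voom called 2 for the change between days. Over all 21187 genes, DESeq2 called 3172 and 8336 for those 2 tests, and limma-voom called 4231 for the change between days. Leaving out 1 replicate at a time, the genes called were 3 to 5 for sex in controls, 1 to 2 for sex in fasted livers, 3 to 4 for days in fasted livers and 1 to 3 for the change between days. Over all genes (21914 to 22744 tested) these calls ran, in the same order, from 5741 to 7704, 5122 to 7304, 3981 to 6800 and 1449 to 4095. Again without 1 replicate at a time, called higher were 1 to 2 nicotinic subunits, 4 to 8 clade A serpins and 2 to 4 other serpins, and called lower 0 to 1 nicotinic subunits. Of 61 tested neighbours within 250 kb, 10 were higher and 34 lower, and of 14 within 50 kb, 2 were higher and 9 lower.

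Signs turned only among estimates that were not called. Without 1 replicate, values at CT8 ran from −1.48 to 1.36 for Chrna4, −1.23 to 0.685 for E030018B13Rik, −1.14 to 0.346 for Serpina9 and −0.716 to 1.99 for Gm48199. For sex in fasted livers they ran from −1.54 to 0.0871 for Chrna4 and −0.444 to 0.758 for Gm48199, and for days in controls from −0.572 to 0.139 for Serpina9 and −0.379 to 0.320 for Gm15998. At CT8, Chrna4 was −0.110 and E030018B13Rik 0.838 without control CT8 female 2, and Chrna4 was −0.339 by limma-voom. The cause was not tested. Depth limits Serpina9 and Chrna4 in fasted livers, where 16 and 4 of 36 libraries were at 0.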

Other observations

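From mouse to mouse, after the mean of each treatment, time and sex was taken away, the 5 genes did not vary as 1 group. Over 80 libraries the residuals of Gm48199 and E030018B13Rik had r = 0.52. Those of Chrna4 and Gm15998, both lower in fasted livers, had r = 0.62 in the 40 control libraries and −0.21 in the 40 titled fasted. The latter include CT8, when the mice were still fed. From CT12 to CT44 fasted livers held median counts of 9.5 for Chrna4 and 9 for Gm15998. Counting error weighs more at such counts, and no change between treatments is read from these values. Serpina9, the other gene with lower levels, had r = −0.51 with Chrna4 and −0.56 with Gm15998 in controls. These points share libraries and depth, and the values are descriptions.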
